A study of Homo sapiens and Mus musculus with 24 samples.

Results

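The insulin-like growth factor (IGF) system of LNCaP cells was described through 10 genes, chosen by symbol and not by their values: the binding proteins IGFBP1 to IGFBP6, the receptors IGF1R and IGF2R, and the docking proteins IRS1 and IRS2. All 10 were among the 44564 gene names of the LNCaP table. LNCaP is an established, androgen-responsive human prostate cancer line, labelled as epithelial and WT in all groups. The 12 libraries form 6 groups of 2 biological replicates, all collected at day 7. Some cells were cultured by themselves, some beside fibroblasts named CCAFs in the labels and some beside fibroblasts named CRPCCAFs. Each kind of culture was given DMSO, the vehicle, or enzalutamide, an antiandrogen, at 1 µM. The titles of these samples carry p53 for the CCAF and p53_ca for the CRPCCAF cocultures. The labels spell out neither fibroblast name, and give neither the species of the cocultured fibroblasts nor how the RNA of the 2 cell types was kept apart. LNCaP stands for 1 cell line, so the replicates carry no spread between patients, and each p below measures only the spread between cultures of it.

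IGF ligands act through IGF1R, a receptor tyrosine kinase that recruits IRS1 and IRS2 to pass the signal to PI3 kinase and AKT. IGF2R has no kinase of its own and removes IGF2 by taking it to the lysosome. The binding proteins are secreted, hold the ligands in the medium and at the matrix, and can lower or prolong receptor signalling, and proteases release the ligands again. In prostate cancer cells, IGF signalling is known as a growth and survival input beside androgen signalling.

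Values are RPKM, read counts scaled by gene length and library size, as deposited. A fold is the ratio of 2 mean RPKM, and each log2 difference is on the log2(RPKM + 1) scale, which understates the change of low genes. P values are from limma over 16042 genes and were adjusted by Benjamini-Hochberg, and "rose" or "fell" is used where the adjusted p was under 0.05. Of the 10 genes, 7 passed the filter of 1 RPKM in at least 2 libraries. IGFBP5 passed it only through the CRPCCAF cocultures, IRS1 only through the cocultures under DMSO and IRS2 only through the DMSO libraries. These genes were thus tested because of the groups in which they were high. IGFBP1, IGFBP4 and IGFBP6 did not pass.

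The genes lie at separate loci apart from 2 pairs of neighbours (GENCODE 29, build GRCh38, as the files give no positions). IGFBP1 (chr7:45888357-45893668, plus strand) and IGFBP3 (chr7:45912245-45921874, minus strand) face each other across 18.576 kb. IGFBP2 (chr2:216632828-216664436, plus strand) and IGFBP5 (chr2:216672105-216695525, minus strand) do so across 7.668 kb. IGFBP5's start lies within an annotated antisense gene, and the sources used here do not state whether strand was used in counting. IGF1R is at chr15:98648539-98964530 and IGF2R at chr6:159969099-160113507, both on the plus strand. IRS1 (chr2:226731317-226799759) and IRS2 (chr13:109752698-109786568) are on the minus strand. All are protein-coding genes.

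The sequences just upstream of the start sites of IGFBP3, IGFBP5 and IGF1R are shown because, among the 7 tested genes, IGFBP3 and IGFBP5 had the largest rises and IGF1R the largest fall with enzalutamide. Each is the 250 bases 5′ of a RefSeq start (GRCh38.p14), on the gene's own strand, at chr7:45921273-45921522 (minus), chr2:216695550-216695799 (minus) and chr15:98648289-98648538 (plus). Capitals mark matches to the GC box GGGCGG and the hypoxia core ACGTG, read on either strand.
IGFBP3: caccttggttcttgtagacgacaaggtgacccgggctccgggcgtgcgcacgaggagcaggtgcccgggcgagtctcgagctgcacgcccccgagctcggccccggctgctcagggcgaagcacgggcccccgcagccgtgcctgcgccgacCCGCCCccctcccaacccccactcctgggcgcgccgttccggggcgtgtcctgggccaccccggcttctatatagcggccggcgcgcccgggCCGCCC
IGFBP5: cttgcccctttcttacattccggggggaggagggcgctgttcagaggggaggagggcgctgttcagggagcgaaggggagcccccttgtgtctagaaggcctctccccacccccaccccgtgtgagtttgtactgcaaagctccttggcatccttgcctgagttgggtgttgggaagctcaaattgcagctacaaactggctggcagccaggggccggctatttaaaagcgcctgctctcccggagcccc
IGF1R: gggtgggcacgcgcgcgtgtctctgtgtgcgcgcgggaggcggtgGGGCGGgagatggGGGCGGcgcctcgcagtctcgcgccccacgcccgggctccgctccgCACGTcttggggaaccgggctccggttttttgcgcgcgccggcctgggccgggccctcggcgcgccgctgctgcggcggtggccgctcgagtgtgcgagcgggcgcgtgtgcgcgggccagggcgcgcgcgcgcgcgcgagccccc
The IGFBP3 window held 2 GC boxes and the IGF1R window 2 GC boxes and 1 hypoxia core, while none of the searched motifs was in the IGFBP5 window. GC boxes were in 42.6% of the 35116 RefSeq windows of this length, and the hypoxia core in 18.5%. No match to the forkhead site TGTTTAC (2.98% of windows) or the TATA box TATAAA (10.7%) was in these 3 windows. The GC content was 76.0% for IGFBP3, 61.2% for IGFBP5 and 81.2% for IGF1R, against a median of 58.0% over all windows. A match describes these letters only.

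**Figure D1:**
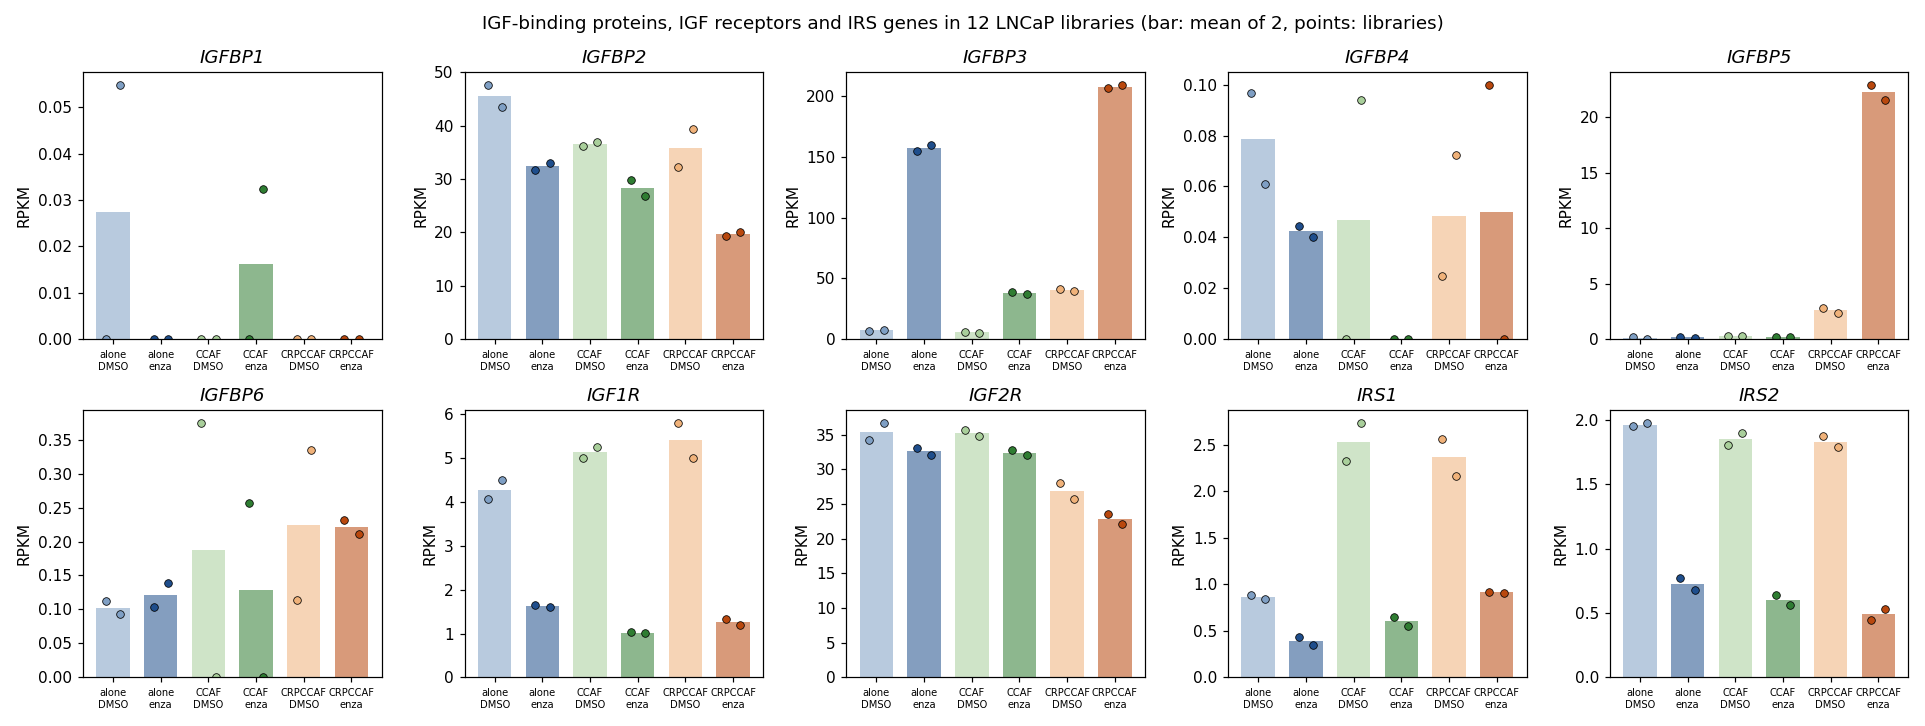
RPKM of the 10 genes (vertical axis, linear from 0, a scale for each gene) in the 12 LNCaP libraries, by group, with bars for the mean of 2 libraries and points for the libraries. IGFBP3 is higher under enzalutamide than under DMSO within each culture, IGFBP5 is at 21.5 and 22.9 RPKM with CRPCCAFs under enzalutamide, and IGF1R and IRS2 are low in every enzalutamide library.

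The libraries hold 17853002 to 22189988 reads each, recovered from the steps of the RPKM values. In the first library of cells alone under DMSO, some low markers of other cell types were above its replicate. COL1A2 was at 0.290 against 0.0167 RPKM, LUM at 0.665 against 0.236 and LYZ at 0.857 against 0.0896. All 12 luminal markers looked for were at 1 RPKM or more in every library. KLK3, the prostate-specific antigen, averaged 1194 RPKM alone under DMSO and 58.5 under enzalutamide, 1855 and 449 with CCAFs, and 1988 and 179 with CRPCCAFs. Of 25 fibroblast markers, 11 were under 0.5 RPKM in every library, among them COL1A2, DCN, PDGFRA, PDGFRB, THY1 and FAP, and 8 were at 1 RPKM or more in every library, among them FN1, COL6A1, COL1A1 and VIM. Of the 11 fibroblast markers tested, 6 were higher and 0 lower with CRPCCAFs than alone under DMSO (14.3% and 16.3% of all tested genes). Under enzalutamide, 8 were higher and 0 lower with CRPCCAFs than with CCAFs (13.9% and 18.5%). With CCAFs against alone, 3 were higher and 0 lower under DMSO (5.47% and 3.99%), and 2 and 2 under the drug (11.9% and 7.51%). In cells grown without fibroblasts, enzalutamide raised 6 of these markers and lowered 2 (30.1% and 25.3%). In these bulk samples, fewer cells of a type and less RNA per cell cannot be told apart.

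IGFBP3, a carrier of most circulating IGF that also binds cell-surface partners, showed the widest range in RPKM among the 10 genes. Alone under DMSO it was at 7.03 and 7.87 RPKM (342 and 457 reads), and under enzalutamide at 155 and 159 RPKM (8184 and 9321 reads). With CCAFs it was at 5.99 and 5.20 RPKM under DMSO and at 38.8 and 37.4 under enzalutamide. With CRPCCAFs it was at 40.9 and 40.0 RPKM under DMSO and at 206 and 209 under enzalutamide. Drug and vehicle libraries did not overlap in any of the 3 cultures, and the CRPCCAF coculture under DMSO already stood at the level that the CCAF coculture reached under the drug. IGFBP3 rose with enzalutamide in each culture. The rise was 21.1-fold alone (log2 4.23, SE 0.0620, adjusted p = 3.5e-10), 6.80-fold with CCAFs (log2 2.57, adjusted p = 5e-09) and 5.14-fold with CRPCCAFs (log2 2.33, adjusted p = 3.4e-09).

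As a log2 difference, the enzalutamide effect on IGFBP3 was smaller in both cocultures than in cells alone, in a test of the difference itself. It was smaller by 1.66 on the log2 scale with CCAFs (a log2 difference of -1.66, SE 0.0876, adjusted p = 1.8e-05) and by 1.89 with CRPCCAFs (a log2 difference of -1.89, adjusted p = 5.9e-06). Between the 2 cocultures the effects differed by -0.24 (adjusted p = 0.16), while it was -0.41 (adjusted p = 0.0048) in the limma-voom fit to recovered reads and -0.39 (adjusted p = 0.047) with a pseudocount of 0.1. The starting points of the cocultures were on opposite sides of the cells grown alone. Under DMSO, IGFBP3 fell by 0.36 on the log2 scale with CCAFs (1.33-fold lower, adjusted p = 0.0067) and rose 5.43-fold with CRPCCAFs (log2 2.30, adjusted p = 1.6e-08). Under enzalutamide it was 4.13-fold lower with CCAFs than alone (log2 -2.02, adjusted p = 8.6e-08) and 1.32-fold higher with CRPCCAFs (log2 0.40, adjusted p = 0.00083). The difference between CRPCCAF and CCAF cocultures was 7.23-fold under DMSO and 5.46-fold under enzalutamide (log2 2.65 and 2.42). In RPKM, the mean went from 7.45 to 157 alone, from 5.60 to 38.1 with CCAFs and from 40.5 to 208 with CRPCCAFs. The rise with CRPCCAFs was thus smaller than alone as a ratio but not in RPKM added. From low to high, the group means were 5.60, 7.45, 38.1, 40.5, 157 and 208 RPKM. The CCAF coculture under drug and the CRPCCAF coculture under DMSO are neighbours in this order, at 38.1 ± 0.988 and 40.5 ± 0.675 (SD, n = 2), and this pair was not tested.

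IGFBP5, a binding protein that associates with the extracellular matrix, was near the limit of detection in cells alone and with CCAFs. It was at 0.156 and 0.0218 RPKM alone under DMSO (18 and 3 reads) and at 0.215 and 0.101 alone under enzalutamide (27 and 14 reads). With CCAFs the values were 0.307 and 0.311 RPKM under DMSO and 0.206 and 0.189 under enzalutamide (22 to 37 reads per library). With CRPCCAFs they were 2.84 and 2.38 RPKM under DMSO (321 and 275 reads) and 22.9 and 21.5 under enzalutamide (2559 and 2639 reads). All 4 CRPCCAF libraries lay above all 8 others, and within the CRPCCAF coculture the drug and vehicle libraries did not overlap. With CRPCCAFs, IGFBP5 rose under DMSO (log2 1.73 against alone, SE 0.112, adjusted p = 4.2e-06, and 1.46 against CCAFs, adjusted p = 4.9e-05). Under enzalutamide the log2 differences were 4.33 against alone (adjusted p = 5.1e-09) and 4.28 against CCAFs (adjusted p = 1.4e-08).

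Enzalutamide raised IGFBP5 8.52-fold in the CRPCCAF coculture (log2 2.69, adjusted p = 5.5e-08). In cells alone the log2 difference was 0.09 (adjusted p = 0.53) and with CCAFs it was -0.13 (adjusted p = 0.38). The drug effect with CRPCCAFs exceeded that with CCAFs by 2.82 on the log2 scale (SE 0.158, adjusted p = 1.4e-05) and that in cells alone by 2.60 (adjusted p = 2.9e-05). In the limma-voom fit to recovered reads the second of these was 1.78 with an adjusted p of 0.056, where cells alone hold 3 to 27 reads per library. That fit also called IGFBP5 higher with CCAFs than alone under DMSO (log2 2.38, adjusted p = 0.0027), where the RPKM fit gave 0.27 (adjusted p = 0.18). IGFBP5 passed the filter only through the CRPCCAF libraries, so its tests against the other cultures are descriptions and no independent support.

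Among groups, the summed RPKM of the 25 fibroblast markers was highest in the same 2 groups as IGFBP5, and did not follow it in the other 4. It ran from 98.0 to 103 alone under DMSO, 153 to 155 alone under enzalutamide, 138 to 143 and 147 to 148 with CCAFs, 215 to 225 with CRPCCAFs under DMSO and 296 to 305 with CRPCCAFs under enzalutamide. FN1, the matrix protein fibronectin, made up most of this sum in the CRPCCAF libraries, with 142 and 129 RPKM under DMSO and 187 and 179 under the drug. VIM, a mesenchymal filament gene, had group means of 2.99 and 2.56 RPKM alone, 5.80 and 5.32 with CCAFs, and 10.3 and 12.1 with CRPCCAFs. The sum of 7 leukocyte and endothelial markers ran from 5.36 to 6.56 alone under DMSO, 5.60 to 6.37 alone under the drug, 7.449 to 7.452 and 10.28 to 10.97 with CCAFs, 10.1 to 11.5 with CRPCCAFs and 22.8 to 23.8 with CRPCCAFs under the drug. CD68, a lysosomal protein of macrophages that other cells also make, was most of it, with group means of 4.49 and 5.04, 5.04 and 6.45, and 9.19 and 21.9 RPKM in the order of VIM, while PTPRC, CD3E, PECAM1 and CDH5 were under 0.5 RPKM in every library. COL1A2 was at 0.0299 RPKM or less in all 8 coculture libraries, and other collagen genes differed. COL1A1 was at 4.49 and 4.75 RPKM alone under DMSO and 7.47 and 8.14 alone under the drug. With CRPCCAFs it was at 7.22 and 8.25 under DMSO and 12.2 and 12.6 under the drug. In that last group COL5A1 was at 1.87 and 2.01, against 0.458 and 0.378 alone under DMSO. COL3A1 went the other way, at 0.214 and 0.139 against 0.503 and 0.256. The part of RNA from other cells in the IGFBP5 values was not tested.

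The fibroblast cultures of the series give the levels of the mouse genes of the same names. In 4 libraries of mouse cancer-associated fibroblasts under DMSO or enzalutamide, Igfbp5 was at 5.81 to 8.73 TPM and Igfbp3 at 6.83 to 10.0, against 362 to 391 for Igfbp2, 320 to 373 for Igfbp6, 2251 to 2597 for Igfbp4 and 2125 to 2520 for Igfbp7. In the 8 LNCaP coculture libraries the order was different: IGFBP3 reached 209 RPKM and IGFBP5 22.9, while IGFBP4 was at most 0.10, IGFBP6 0.375 and IGFBP7 0.0773. Col1a2 was at 2976 to 3562 TPM in these fibroblasts, whose titles carry p53 and whose source is given as PtenPC-/-; Trp53PC-/- mice. In the 2 untreated day 0 libraries titled ca, from ADT mice of that genotype, Igfbp5 was at 10.2 and 11.2 TPM, Igfbp3 at 33.3 and 34.8, Igfbp2 at 0.102 and 0.198 and Igfbp4 at 593 and 599.9. The low Igfbp2 and Igfbp4 were not particular to the libraries titled ca. Under enzalutamide with TGF-beta1, Igfbp2 was at 0.181 and 0.204 TPM and Igfbp4 at 556 and 565. With Sox4 overexpression, Igfbp2 was at 0.467 and 0.768 TPM and Igfbp4 at 538 and 545. With TGF-beta1 but no enzalutamide, Igfbp2 was at 303 and 323 TPM. The cause of this split was not tested. Over all 12 fibroblast libraries, which include TGF-beta1 treatment and Sox4 overexpression, Igfbp5 ran from 5.81 to 14.4 TPM and Igfbp3 from 6.05 to 36.6. TPM and RPKM are different scales, and the labels do not say that the cocultured fibroblasts were these.

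**Figure D2:**
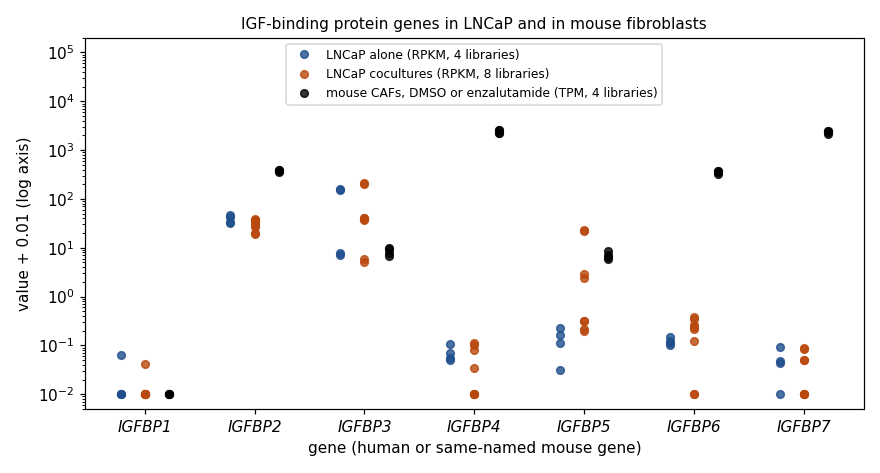
Levels of IGFBP1 to IGFBP7 (value + 0.01 on a log axis) in LNCaP alone (RPKM, 4 libraries), in LNCaP cocultures (RPKM, 8 libraries) and of the same-named genes in mouse fibroblasts (TPM, 4 libraries), with 1 point per library. IGFBP4, IGFBP6 and IGFBP7 are at 320 TPM or more in these 4 fibroblast libraries and under 0.5 RPKM in LNCaP libraries. IGFBP3 reaches 159 RPKM in cells alone and 209 in cocultures, and IGFBP5 reaches 22.9 in cocultures. TPM and RPKM are different scales.

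IGFBP2, the most abundant binding protein of the cells grown alone under DMSO, fell with enzalutamide in all 3 cultures. It was at 47.7 and 43.5 RPKM alone under DMSO and at 31.7 and 33.1 under enzalutamide. With CCAFs it was at 36.3 and 37.0 RPKM and, under the drug, at 29.9 and 26.9. With CRPCCAFs it was at 32.2 and 39.4 RPKM and, under the drug, at 19.2 and 20.1, the 2 lowest of the 12 libraries. The drug and vehicle libraries did not overlap within any culture. The falls were 1.41-fold alone (log2 -0.48, SE 0.0867, adjusted p = 0.0011), 1.29-fold with CCAFs (log2 -0.36, adjusted p = 0.0072) and 1.82-fold with CRPCCAFs (log2 -0.83, adjusted p = 3.2e-05). Without the second CCAF library under enzalutamide the adjusted p of the CCAF comparison was 0.058.

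The 3 drug effects on IGFBP2 did not pass a test of their differences, with adjusted p of 0.64, 0.13 and 0.055 for CCAF against alone, CRPCCAF against alone and CRPCCAF against CCAF. In the limma-voom fit the second and the last of these reached 0.019 and 0.0022. Without the first CRPCCAF library under DMSO, the log2 differences of these effects were -0.49 and -0.61, against -0.35 and -0.47 with all libraries. Coculture with CRPCCAFs lowered IGFBP2 under enzalutamide, by 1.65-fold against alone (log2 -0.69, adjusted p = 0.00023) and 1.44-fold against CCAFs (log2 -0.51, adjusted p = 0.0017). Under DMSO it was 1.27-fold lower with CRPCCAFs than alone (log2 -0.35, adjusted p = 0.014), a call lost without the first library of either group (adjusted p = 0.096 and 0.071). With CCAFs the log2 differences from cells alone were -0.31 under DMSO (adjusted p = 0.057) and -0.19 under the drug (adjusted p = 0.17). The one under DMSO had an adjusted p of 0.044 after median-of-ratios scaling and 0.0014 in the limma-voom fit. In the CRPCCAF coculture under enzalutamide the convergent neighbours IGFBP2 and IGFBP5 thus moved in opposite directions, and they were at 19.7 ± 0.572 and 22.2 ± 0.993 RPKM (SD, n = 2).

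The other 3 binding proteins were barely detected. IGFBP1, best known as a liver product that insulin lowers, had 0 to 2 reads per library and 0 in 10 of 12. IGFBP4, which inhibits IGF action until it is cleaved by the protease PAPPA, had 0 to 4 reads and at most 0.10 RPKM. IGFBP6, which prefers IGF2 as its ligand, had 0 to 7 reads and at most 0.375 RPKM. Where no read was counted, 3 reads, the limit that a count of 0 allows for counting error only, would be 0.0818 to 0.102 RPKM for IGFBP1, 0.0664 to 0.0719 for IGFBP4 and 0.163 to 0.166 for IGFBP6. In a limma fit without the filter, none of the 3 passed in any of the 12 comparisons (adjusted p of 0.4 to 1). At this depth, differences of a few reads were not detectable.

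IGF1R, the signalling receptor for IGF1 and IGF2, fell with enzalutamide in every culture. It was at 4.06 and 4.50 RPKM alone under DMSO and at 1.64 and 1.61 under enzalutamide (919 and 1215 against 404 and 437 reads). With CCAFs it was at 5.01 and 5.26 RPKM under DMSO and at 1.03 and 1.02 under the drug. With CRPCCAFs it was at 5.80 and 5.00 RPKM under DMSO and at 1.33 and 1.21 under the drug. All 6 enzalutamide libraries were below all 6 DMSO libraries, and the lowest were those with CCAFs. The falls were 2.64-fold alone (log2 -1.01, SE 0.0846, adjusted p = 6.6e-06), 5.01-fold with CCAFs (log2 -1.60, adjusted p = 5.9e-07) and 4.26-fold with CRPCCAFs (log2 -1.49, adjusted p = 4.8e-07).

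The fall of IGF1R was deeper in both cocultures than alone, by a log2 difference of -0.59 with CCAFs (SE 0.120, adjusted p = 0.018) and of -0.49 with CRPCCAFs (adjusted p = 0.041). Both calls are near the threshold: with 1 library left out in turn, the first was lost in 6 of 8 fits and the second in 7 of 8, with adjusted p up to 0.076 and 0.13, and without the filter on low values the second had an adjusted p of 0.089. Between the cocultures the effects differed by 0.10 (adjusted p = 0.69). Under DMSO, IGF1R was 1.26-fold higher with CRPCCAFs than alone (log2 0.28, adjusted p = 0.034), a call lost without either library of the cells alone (adjusted p = 0.18 and 0.055) or the first CRPCCAF library (adjusted p = 0.19), with a pseudocount of 0.1 (adjusted p = 0.053) and without the filter (adjusted p = 0.077). The log2 difference for CCAFs under DMSO was 0.22 (adjusted p = 0.15), and 0.26 with an adjusted p of 0.0083 in the limma-voom fit. Under enzalutamide, IGF1R was 1.59-fold lower with CCAFs than alone (log2 -0.38, adjusted p = 0.014), and this was lost without any 1 of the 4 libraries (adjusted p 0.055 to 0.073). With CRPCCAFs the log2 difference under the drug was -0.21 (adjusted p = 0.080), and -0.34 with an adjusted p of 0.042 with a pseudocount of 0.1. In the limma-voom fit it was -0.36 (adjusted p = 0.0079).

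IGF2R, the scavenging receptor for IGF2, was the more abundant receptor per unit length, from 22.1 to 36.7 RPKM over the 12 libraries. It was at 34.2 and 36.7 RPKM alone under DMSO, 33.1 and 32.04 alone under enzalutamide, 35.7 and 34.9 with CCAFs and 32.7 and 32.03 with CCAFs under the drug. With CRPCCAFs it was at 28.1 and 25.8 RPKM under DMSO and at 23.5 and 22.1 under enzalutamide. The 4 CRPCCAF libraries were below the 8 others. IGF2R was lower with CRPCCAFs than alone, 1.32-fold under DMSO (log2 -0.39, SE 0.0531, adjusted p = 0.00058) and 1.43-fold under enzalutamide (log2 -0.50, adjusted p = 8.4e-05), and against CCAFs the log2 differences were -0.38 (adjusted p = 0.0019) and -0.49 (adjusted p = 0.0001). Enzalutamide lowered IGF2R with CRPCCAFs (log2 -0.23, adjusted p = 0.0049). The drug differences alone and with CCAFs were both -0.12 (adjusted p = 0.088 and 0.089), and they reached 0.023 and 0.021 after median-of-ratios scaling. The 3 drug effects did not pass a test of their differences (adjusted p = 0.44 to 0.99). With IGF1R at 1.27 ± 0.0873 and IGF2R at 22.8 ± 0.997 RPKM (SD, n = 2) in the CRPCCAF coculture under drug, both receptors had fallen from their CRPCCAF vehicle levels.

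**Figure D3:**
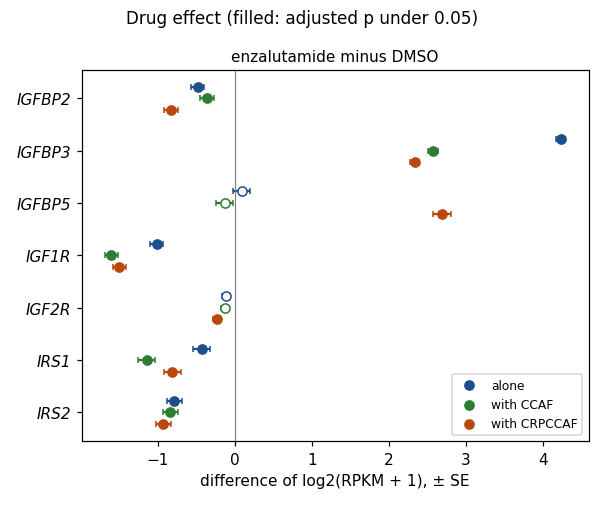
Log2 differences, enzalutamide minus DMSO, on the log2(RPKM + 1) scale (horizontal axis, points with SE) for the 7 tested genes in cells alone, with CCAFs and with CRPCCAFs, filled where the adjusted p was under 0.05. IGFBP3 is the gene raised in all 3 cultures, from 2.33 to 4.23, and IGFBP5 is raised with CRPCCAFs at 2.69.

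IRS1, a docking protein that links IGF1R and the insulin receptor to PI3 kinase, rose with both fibroblasts under DMSO and fell with enzalutamide. It was at 0.886 and 0.845 RPKM alone under DMSO (143 and 163 reads) and at 0.433 and 0.345 under enzalutamide. With CCAFs it was at 2.33 and 2.74 RPKM under DMSO and at 0.651 and 0.558 under the drug. With CRPCCAFs it was at 2.56 and 2.17 RPKM under DMSO and at 0.922 and 0.909 under the drug. The 4 vehicle cocultures were above the 8 other libraries, while the CRPCCAF libraries under the drug were just above the vehicle libraries of cells alone. Under DMSO the rises were 2.93-fold with CCAFs (log2 0.92, SE 0.111, adjusted p = 0.00083) and 2.73-fold with CRPCCAFs (log2 0.85, adjusted p = 0.00042), and the cocultures differed by -0.07 (adjusted p = 0.72).

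Enzalutamide lowered IRS1 2.23-fold alone (log2 -0.43, adjusted p = 0.0087), 4.19-fold with CCAFs (log2 -1.14, adjusted p = 2.8e-05) and 2.59-fold with CRPCCAFs (log2 -0.81, adjusted p = 0.00019). The first call had an adjusted p of 0.052 without the second library of cells alone under drug. The fall with CCAFs exceeded that alone by a log2 difference of -0.71 (SE 0.157, adjusted p = 0.026). This was lost in 7 of 8 fits with 1 library left out (adjusted p up to 0.11), and with a pseudocount of 0.1 (adjusted p = 0.096) or no filter (adjusted p = 0.057). For CRPCCAFs against alone the difference of effects was -0.39 (adjusted p = 0.19). Under enzalutamide IRS1 was 2.35-fold higher with CRPCCAFs than alone (log2 0.46, adjusted p = 0.0095), which became 0.058 without the second library of cells alone. The log2 difference was 0.21 for CCAFs (adjusted p = 0.23), and 0.65 with an adjusted p of 0.019 in the limma-voom fit.

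IRS2, the other docking protein, fell with enzalutamide in every culture. It was at 1.95 and 1.97 RPKM alone under DMSO, 1.80 and 1.90 with CCAFs and 1.87 and 1.79 with CRPCCAFs. Under enzalutamide it was at 0.768 and 0.681 RPKM alone, 0.636 and 0.559 with CCAFs and 0.447 and 0.531 with CRPCCAFs. The 6 drug libraries lay below the 6 vehicle libraries without overlap. The falls were 2.71-fold alone (log2 -0.78, SE 0.0976, adjusted p = 0.0001), 3.09-fold with CCAFs (log2 -0.83, adjusted p = 8.9e-05) and 3.74-fold with CRPCCAFs (log2 -0.93, adjusted p = 3.3e-05). No coculture difference of IRS2 passed the threshold, with adjusted p of 0.79 and 0.66 under DMSO and 0.48 and 0.12 under the drug, and the differences of the drug effects had adjusted p of 0.61 to 0.87. In the limma-voom fit, IRS2 was lower with CRPCCAFs than alone under the drug (log2 -0.55, adjusted p = 0.019).

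**Figure D4:**
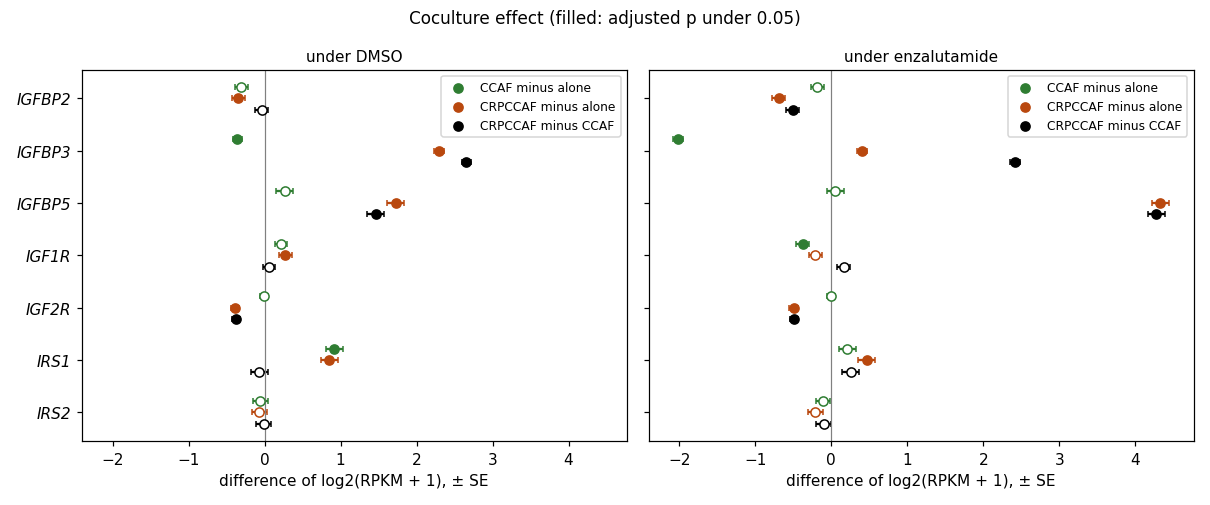
Log2 differences between cultures on the log2(RPKM + 1) scale (horizontal axis, points with SE) under DMSO and under enzalutamide for the 7 tested genes, filled where the adjusted p was under 0.05. IGFBP3 and IGFBP5 are the genes that separate CRPCCAF from CCAF cocultures most, at 2.65 and 1.46 under DMSO and 2.42 and 4.28 under enzalutamide, and IRS1 is raised by both fibroblasts under DMSO.

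Counted over the 7 tested genes, enzalutamide raised 1 and lowered 4 in cells alone, where 30.1% of all 16042 tested genes rose and 25.3% fell. It raised 1 and lowered 4 with CCAFs, where 26.8% of all genes rose and 21.5% fell. With CRPCCAFs it raised 2 and lowered 5, where 30.5% rose and 24.7% fell. The median log2 difference of the 7 was -0.43, -0.36 and -0.81 in these comparisons, against 0.042, 0.046 and 0.051 over all genes tested. Under DMSO, CCAFs raised 1 and lowered 1 of the 7 against cells alone, where 5.47% of all genes rose and 3.99% fell. CRPCCAFs raised 4 and lowered 2, where 14.3% rose and 16.3% fell, and against CCAFs 2 were higher and 1 lower, where 7.03% and 6.41% of all genes were. Under enzalutamide, 0 of the 7 were higher and 2 lower with CCAFs than alone, where 11.9% and 7.51% of all genes were. With CRPCCAFs 3 were higher and 2 lower than alone, where 16.5% and 19.6% were, and against CCAFs 2 were higher and 2 lower, where 13.9% and 18.5% were. The difference of drug effects was negative and passed for 3 of the 7 with CCAFs against alone and positive for 0, where 2.45% of all genes had a negative and 4.56% a positive one. With CRPCCAFs against alone it passed for 2 with a negative and 1 with a positive sign (3.33% and 3.68% of all genes). Between the cocultures it passed for 0 with a negative and 1 with a positive sign (4.07% and 2.38%). The members that passed include the 3 that met the filter only through the groups in which they were high. Comparisons that share a group share its libraries, and these counts are not independent of each other.

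The ligands themselves were low in the LNCaP libraries, and none of 6 ligand and carrier genes passed the filter. IGF1 was at 0.740 ± 0.0190 RPKM (SD, n = 2) alone under DMSO and 0.221 ± 0.0199 under enzalutamide, 0.706 and 0.237 with CCAFs, and 0.570 and 0.115 with CRPCCAFs. IGF2 ran from 0.0612 ± 0.00319 alone under DMSO to 0.520 ± 0.0711 with CRPCCAFs under the drug. INS, insulin, was at 0 in all libraries, and IGFALS, which stabilises the complex of IGF and IGFBP3 in blood, ran from 0.218 to 0.755 in group means. IGFBP7, a related protein that binds IGF weakly, had group means of at most 0.0583, and IGFBPL1 ran from 0.0907 to 0.238.

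Among proteases that cleave binding proteins and their inhibitors, 9 of 18 were tested, and 3 rose and 6 fell with enzalutamide in each of the 3 cultures, where 26.8% to 30.5% of all genes rose and 21.5% to 25.3% fell. The falls included KLK3 and KLK2, prostate kallikreins that cleave IGFBP3, with log2 differences of -4.33 and -4.52 in cells alone (adjusted p = 2e-10 and 3.5e-10). STC2, a secreted inhibitor of the IGFBP protease PAPPA, fell from 13.6 to 5.93 RPKM alone (log2 -1.07, adjusted p = 1.9e-07), and FURIN, a proprotein convertase, rose from 11.4 to 19.8 (log2 0.75, adjusted p = 5.4e-07). PAPPA itself was under 0.05 RPKM in every group mean. Under DMSO, 6 of the 9 were higher and 0 lower with CCAFs than alone (5.47% and 3.99% of all genes), and 8 higher and 0 lower with CRPCCAFs (14.3% and 16.3%). MMP7, a metalloprotease, rose from 1.03 RPKM alone to 3.94 with CCAFs (log2 1.28, adjusted p = 2.7e-05) and to 41.8 with CRPCCAFs (log2 4.40, adjusted p = 4.3e-09), and fell to 6.09 with CRPCCAFs under the drug (log2 -2.60, adjusted p = 2.3e-08). STC1, another PAPPA inhibitor, rose from 1.94 to 6.38 with CCAFs and 7.76 with CRPCCAFs (log2 1.34 and 1.59, adjusted p = 4e-05 and 4.8e-06).

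Of 4 other receptors, 3 were tested. LRP1, an endocytic receptor that binds IGFBP3, was at 2.89 RPKM alone under DMSO and 4.96 under the drug, 4.21 and 5.32 with CCAFs, and 6.62 and 10.2 with CRPCCAFs. TMEM219, a cell-death receptor for IGFBP3, was at 49.9 and 82.0, 54.7 and 77.1, and 57.1 and 87.4 in the same order. Both rose with enzalutamide in all 3 cultures. INSR, the insulin receptor, was between 4.03 and 5.65 in group means, and it rose with enzalutamide in the CRPCCAF coculture (log2 0.18, adjusted p = 0.036). The differences between its 3 drug effects had adjusted p of 0.23 to 0.68.

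Of 12 tested adaptors, 6 rose and 1 fell with enzalutamide alone (30.1% and 25.3% of all genes), 6 and 2 with CCAFs (26.8% and 21.5%), and 7 and 1 with CRPCCAFs (30.5% and 24.7%). GRB10, an adaptor that inhibits signalling from the IGF1 and insulin receptors, rose from 27.7 to 135 RPKM alone, from 17.1 to 98.5 with CCAFs and from 14.7 to 86.0 with CRPCCAFs (log2 2.24, 2.46 and 2.47, adjusted p = 4.7e-10, 3.5e-10 and 1.7e-10). Under DMSO, GRB10 was lower in both cocultures than alone (log2 -0.67 with CCAFs and -0.87 with CRPCCAFs, adjusted p = 5.3e-06 and 2.5e-07). Of 26 tested genes of PI3 kinase, AKT and mTOR signalling, 11 rose and 8 fell with the drug alone, 8 and 7 with CCAFs, and 10 and 7 with CRPCCAFs. Over all genes, 30.1% rose and 25.3% fell alone, 26.8% and 21.5% with CCAFs, and 30.5% and 24.7% with CRPCCAFs. Whether the list departs from these shares was not tested. PIK3IP1, an inhibitor of PI3 kinase, rose from 10.5 to 25.9 RPKM alone (log2 1.22, adjusted p = 1.7e-08), and EIF4EBP1, a translation repressor that mTOR inactivates, fell from 107 to 46.0 (log2 -1.19, adjusted p = 2.7e-07). PIK3CD, a catalytic subunit of PI3 kinase, rose from 19.0 to 39.8 alone (log2 1.03, adjusted p = 6.2e-08), and also in both cocultures (log2 0.80 and 0.99). With CRPCCAFs against alone under DMSO, 3 of the 26 were higher and 11 lower (14.3% and 16.3% of all genes). DDIT4, an inhibitor of mTOR signalling, was 1 of those higher, at 302 against 134 RPKM (log2 1.16, adjusted p = 7.8e-07). Enzalutamide lowered DDIT4 in cells alone, from 134 to 80.0 (log2 -0.74, adjusted p = 4.6e-06).

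Of 14 tested FOXO factors and genes that FOXO is known to induce, 9 rose and 1 fell with enzalutamide alone (30.1% and 25.3% of all genes). The counts were 10 and 1 with CCAFs (26.8% and 21.5%), and 9 and 1 with CRPCCAFs (30.5% and 24.7%). The list's median log2 differences were 0.23, 0.18 and 0.29, against 0.042, 0.046 and 0.051 over all genes. FOXO3 rose from 17.0 to 27.6 RPKM alone (log2 0.67, adjusted p = 2.8e-06). FOXO1 was at 1.56 and 1.84 RPKM alone under DMSO and at 0.728 and 0.894 under enzalutamide. TXNIP, an inhibitor of glucose uptake, rose from 57.3 to 76.3 alone and from 64.6 to 111 with CCAFs (log2 0.40 and 0.78). CDKN1B, the cell-cycle inhibitor p27, rose from 53.7 to 93.8 with CRPCCAFs (log2 0.79, adjusted p = 9.2e-07). Under DMSO, 2 of the 14 were higher and 2 lower with CCAFs than alone (5.47% and 3.99% of all genes), and 8 were higher and 2 lower with CRPCCAFs (14.3% and 16.3%), among them CCNG2, a cyclin G gene, at 41.7 against 20.6 RPKM (log2 0.98, adjusted p = 8e-07).

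**Figure D5:**
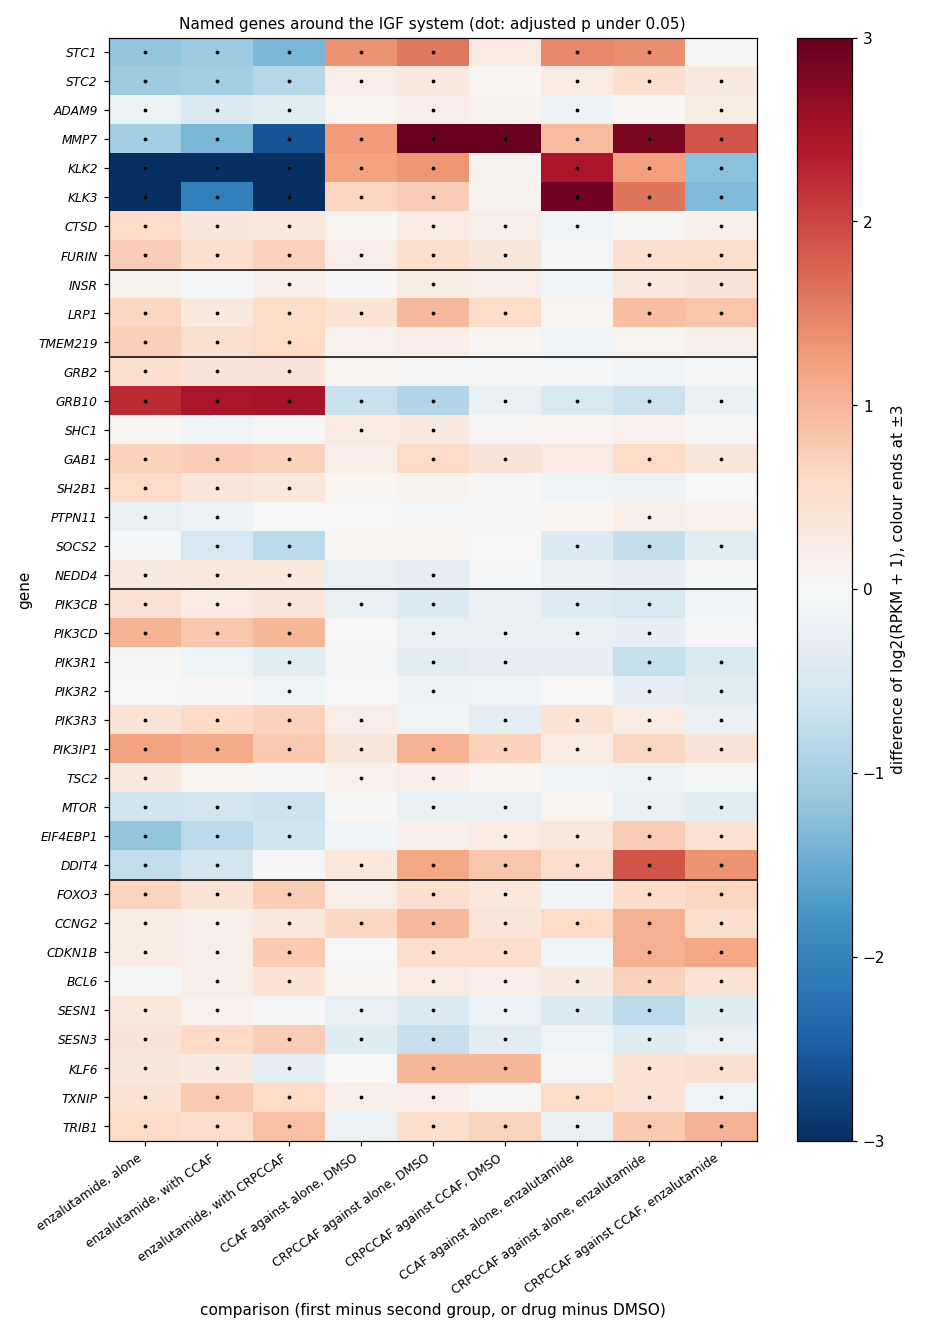
Log2 differences on the log2(RPKM + 1) scale (colour, ending at ±3) of genes around the IGF system (rows, from proteases at the top through receptors, adaptors and PI3 kinase genes to FOXO genes) in the 9 comparisons (columns), with a dot where the adjusted p was under 0.05. GRB10 is raised by enzalutamide in all 3 cultures, at 2.24 to 2.47, while KLK2 and KLK3 are lowered.

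The genes whose levels followed each member most closely were listed by Pearson's r on log2(RPKM + 1) over the 12 libraries, as a description without a test, since libraries of 1 group share their condition. IGF1R was closest to MBOAT2, ELL2 and EFNA5 (r = 0.993, 0.991 and 0.985), and IRS2 was close to ELOVL7 and SLC43A1 (0.997 and 0.992). IGFBP5 was closest to ITGAV, RND1 and LCN2 (0.994, 0.993 and 0.992), IGFBP3 to ZSCAN18, RBM5-AS1 and TALAM1 (0.967, 0.963 and 0.963), and IGFBP2 to CD320, C20orf27 and CPNE7 (0.967, 0.964 and 0.964). IRS1 was closest to PDK3, PPFIBP1 and TBC1D8 (0.977, 0.976 and 0.966) and IGF2R to C4orf32, BDH1 and SCHLAP1 (0.912, 0.895 and 0.889). Among the members themselves, IGF1R and IRS2 were the pair with the highest r, 0.973, and IGFBP5 and IGF2R the pair with the lowest, -0.937. IGFBP3 and IGFBP5 had an r of 0.586.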

How the data were processed

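LNCaP RNA from 6 groups of 2 libraries was extracted with Trizol and sequenced with a NEBNext kit, per the labels' protocols. The authors deposited RPKM for LNCaP and TPM for the fibroblasts, per the file headers. HISAT2, HTSeq, DESeq2, hg19 and mm10 are named in the submitters' processing notes, without role or order. Whether and how human and mouse reads were kept apart is not stated there.

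From 44591 names, 27 calendar dates were removed. Differences were tested with limma 3.58.1 (R 4.3.3) on log2(RPKM + 1), with a mean-variance trend, 6 group means and no block, over 16042 genes at 1 RPKM or more in at least 2 of 12 libraries (6 residual degrees of freedom). P values are two-sided and were adjusted by Benjamini-Hochberg within each of 12 comparisons, with a threshold of 0.05. An exact permutation test of 2 against 2 libraries cannot reach that threshold. The test was run on simulated data. Reads were recovered from the steps of the RPKM values to within 0.02 reads, for at least 99.98% of each RPKM total. Replicate libraries differed by more than sampling noise.

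The members, the gene lists and the tests were chosen with earlier results of these data known. Named were all members, ligand and receptor genes, up to 4 genes per comparison of each other list with the smallest p and groups apart, and the 3 genes closest to each member. A few genes and motifs picked by these rules are not reported here. Alternatives were a pseudocount of 0.1, no filter, median-of-ratios scaling, a replicate block, each library left out in turn and, added after seeing the data, limma-voom on the recovered reads. Upstream sequences and starts are from RefSeq, which held 9 of the 10 members.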

Additional observations from a re-analysis of the deposited data

Results flagged for a closer look

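Of the differences between drug effects in different cultures, 7 passed limma's test of the difference itself, on the log2(RPKM + 1) scale. The enzalutamide effect on IGFBP3 was smaller than in cells alone, with CCAFs (-1.66, adjusted p = 1.8e-05) and with CRPCCAFs (-1.89, adjusted p = 5.9e-06). With CRPCCAFs this holds for the ratio and not for the RPKM added. On IGFBP5 the effect with CRPCCAFs exceeded that alone by 2.60 (adjusted p = 2.9e-05) and that with CCAFs by 2.82 (adjusted p = 1.4e-05). On IGF1R the fall was deeper than alone with CCAFs (-0.59, adjusted p = 0.018) and with CRPCCAFs (-0.49, adjusted p = 0.041). These were lost in 6 of 8 and 7 of 8 fits with 1 library left out, and the second also without the filter (adjusted p = 0.089) and with the replicate block (adjusted p = 0.06). On IRS1 the fall was deeper with CCAFs than alone (-0.71, adjusted p = 0.026), which was lost in 7 of 8 such fits, with a pseudocount of 0.1 (adjusted p = 0.096) and without the filter (adjusted p = 0.057). The difference for IGFBP5 with CRPCCAFs against alone had an adjusted p of 0.056 in the limma-voom fit. IGFBP5 passed the filter only through the CRPCCAF cocultures, and IRS1 only through the cocultures under DMSO. The tests on these genes therefore describe the groups that let them be tested, and are no independent support.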

How the results depend on the processing

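No difference of a member changed direction while called, under any alternative run. Over 84 differences (7 genes in 12 comparisons), the side of the threshold was the same for 80 with a pseudocount of 0.1, 81 without the filter, 81 with median-of-ratios scaling and 70 with limma-voom on recovered reads (13 gained a call, 1 lost it), and for 386 of the differences refitted with 1 library left out, against 32 that lost and 2 that gained a call. The replicate block changed 1 call, the difference in drug effect on IGF1R with CRPCCAFs against alone, at -0.49 with an adjusted p of 0.06. Deviations of libraries with the same replicate number correlated at -0.0617 to 0.0840 over 15 pairs of groups. This gives no sign that the numbers pair the libraries but cannot exclude it, and the labels name no block. Of the counts of members called, that of CCAF against alone under DMSO was 2, and 5 with limma-voom. For CCAF against alone under enzalutamide it was 2, and 1 without any 1 library. For the difference in drug effect of CCAF minus alone it was 3, and 1 to 2 with 1 library left out. For CRPCCAF minus CCAF it was 1, and 2 with a pseudocount of 0.1, 4 with limma-voom and 1 to 2 with 1 library left out. The cause was not tested. Where 1 library was left out, the lone library was assumed to vary like the other groups. With 2 libraries a group, differences near the threshold are the least certain, and depth limits IGFBP5 outside the CRPCCAF cocultures, where a library holds 3 to 37 reads, and IGFBP1, IGFBP4 and IGFBP6, which the filter left out and of which none passed in a fit without it.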
